A study of Mus musculus with 6 samples.

Results

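Oct4 (encoded by Pou5f1), Sox2 and Nanog are the transcription factors at the centre of the network that keeps mouse embryonic stem cells pluripotent. Every array probe whose target name, in any case, was POU5F1, SOX2 or NANOG is described here, 7 of the 46643 probes of the deposited table: 2 for Pou5f1, 2 for Sox2 and 3 for Nanog. The table named 20497 genes in all. All 7 probes passed the filter on dim probes, a detection p under 0.01 on at least 2 of the 6 arrays, which kept 9138 probes, although one Sox2 probe passed through exactly 2 arrays. Probes are named by their array address.

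The cells were CCE, a mouse embryonic stem cell line kept without feeder cells in serum and leukemia inhibitory factor. They were transfected with a plasmid for 1 of 3 short hairpin RNAs and put under puromycin (1.5 µg/ml) from 18 h later for 4 days. The groups were Prmt6 shRNA1, Prmt6 shRNA2 and GFP shRNA, the control, with 2 arrays each. Plasmid backbone, transfection and selection were shared by all groups. Prmt6 is an arginine methyltransferase known for asymmetric dimethylation of arginine residues, among them one near the start of the histone H3 tail. The series title sets the question in pluripotency and reprogramming. Nothing in the labels says whether replicates were separate cultures, so p-values measure the spread between these arrays, which may be technical.

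As background, Oct4 is a POU-domain factor and Sox2 an HMG-box factor. They bind side by side on composite DNA elements, including elements at their own genes and at Nanog. Nanog is a homeodomain factor that acts with them and is known to vary from cell to cell in serum cultures. Loss of Oct4 in mouse embryonic stem cells is known to lead towards trophectoderm, the outer layer of the blastocyst, and loss of Nanog towards primitive endoderm.

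The promoter windows of the 3 genes are shown because they hold, or lack, letters that Oct4 and Sox2 are known to bind. They are RefSeq sequences of build GRCm38.p6, from 250 bases before to 50 bases after an annotated start, all on the + strand of the genome. Capitals mark the octamer core (ATGCAAA), the SOX core (CATTGT) and their composite, the SOX core followed by 1 free base and the octamer core, each searched on both strands. The octamer core and the SOX core overlap the composite by construction.

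Nanog, chr6:122707239-122707538: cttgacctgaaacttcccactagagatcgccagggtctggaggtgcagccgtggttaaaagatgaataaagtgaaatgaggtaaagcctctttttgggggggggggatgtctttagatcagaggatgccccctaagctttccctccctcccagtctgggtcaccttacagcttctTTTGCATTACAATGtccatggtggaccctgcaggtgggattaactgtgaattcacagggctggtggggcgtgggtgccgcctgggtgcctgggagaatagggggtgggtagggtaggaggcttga
Sox2, chr3:34649745-34650044: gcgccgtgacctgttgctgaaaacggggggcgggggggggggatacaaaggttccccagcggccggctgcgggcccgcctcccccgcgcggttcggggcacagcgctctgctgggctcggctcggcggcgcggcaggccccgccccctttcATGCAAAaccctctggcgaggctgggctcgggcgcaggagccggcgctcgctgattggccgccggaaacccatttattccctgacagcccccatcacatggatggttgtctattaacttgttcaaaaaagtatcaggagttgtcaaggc
Pou5f1, chr17:35505782-35506081: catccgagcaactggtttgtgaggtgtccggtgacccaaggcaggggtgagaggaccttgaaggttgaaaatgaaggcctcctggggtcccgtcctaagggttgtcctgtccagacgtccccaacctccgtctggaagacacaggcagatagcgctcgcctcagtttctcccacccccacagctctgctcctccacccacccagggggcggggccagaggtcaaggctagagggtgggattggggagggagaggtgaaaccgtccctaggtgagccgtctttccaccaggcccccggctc

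The composite lay in the Nanog window on the strand opposite to the gene, 75 to 62 bases before this start. It is the known Oct4 and Sox2 element of the Nanog promoter, so its presence was no discovery of the search. The same letters occurred in 2 of 32851 windows of the same length (0.00609%), and both were windows of Nanog, whose annotated starts lie close together. The Sox2 window held an octamer core 99 to 93 bases before the start, letters found in 4.63% of all windows. The Pou5f1 window held none of the motifs. A window at a further annotated start of Pou5f1, not printed, held a SOX core, which 12.6% of all windows held. These matches are letters in a window and say nothing about binding.

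Prmt6 itself had 2 kept probes, and the 4 Prmt6 shRNA arrays lay below the GFP shRNA arrays on both. In normalized values 11.4% of all kept probes had such an order. The dimmer of the 2 was detected on 2 arrays, the fewest that the filter allows. A further Prmt6 probe was detected on no array and was not kept. The brighter one, detected on 3 arrays, had 48.3 and 147.6 intensity units on the Prmt6 shRNA1 arrays, 97.8 and -21.6 on the Prmt6 shRNA2 pair, and 389.8 and 266.1 with GFP shRNA. Intensities are linear bead signals after the authors' background subtraction, which can fall below 0. The differences in Prmt6 did not pass the test over all kept probes (limma adjusted p = 0.135 and 0.105). Probes with such a detection p on an array, here called detected, numbered 6369 and 10928 on the Prmt6 shRNA1 arrays, 7395 and 5782 on the Prmt6 shRNA2 pair, and 9034 and 6444 with GFP shRNA. Prmt6 shRNA2 replicate 2 stood apart: its values correlated with those of its replicate at 0.890 over all kept probes, against 0.959 for the Prmt6 shRNA1 pair and 0.973 for the GFP shRNA pair. Over the first of 2 series of probe addresses, which holds all 7 probes, the Prmt6 shRNA2 pair correlated at 0.971. Of 14 further embryonic stem cell markers, 13 were on the array, and each array detected 9 to 12 of these, with Tdgf1 detected on none.

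All 7 probes of the 3 genes had lower mean levels with the Prmt6 hairpins than with GFP shRNA, at 42.9% to 76.0% of it, and none passed the test over all kept probes at an adjusted p under 0.05. Such a sign was shared by 52.5% of all kept probes. The largest differences were on 2 of the 3 Nanog probes, at 42.9% and 43.8% of the GFP shRNA level with the average of both hairpins. The brightest Nanog probe, 3140114, was at 58%. The brighter Sox2 probe was at 60.6%, and the Pou5f1 probes were at 62.9% and 76.0%. The median log2 difference of the 7 probes was -0.72, beside -0.02 for all kept probes. On 5 of the 7, all 4 Prmt6 shRNA arrays lay below both GFP shRNA arrays, which 11.4% of all kept probes did. In this comparison the test called 29 of 9138 probes (0.317%), 29 higher and 0 lower, while 1168 (12.8%) had an unadjusted p under 0.05. Of the 7 probes 4 had one, all with lower levels, as did 4.54% of all kept probes. With other scalings the split held lower calls too, with 79 higher and 12 lower after scaling to the 75th percentile and 80 higher and 10 lower with the authors' values. The arrays measured pooled cells, in which fewer cells with a transcript and less of it per cell cannot be told apart.

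**Figure D1:**
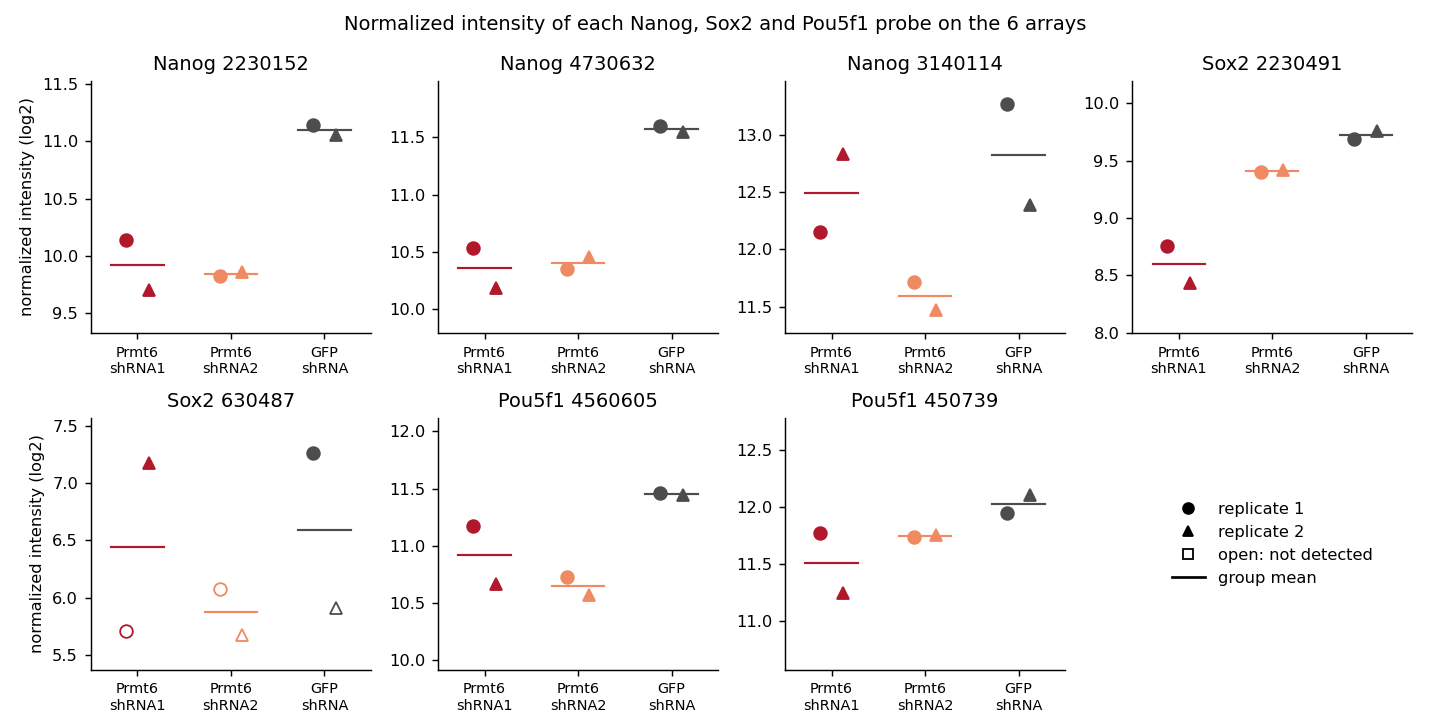
Each panel is 1 probe. The vertical axis is the normalized intensity (log2, background-corrected and quantile-normalized), spanning the same range of log2 units in every panel, points are the 2 arrays of each group, open points were not detected, and lines are group means. On Nanog probes 2230152 and 4730632 the Prmt6 shRNA arrays sit at 9.71 to 10.53, all below the GFP shRNA arrays at 11.06 to 11.60, whereas on Nanog probe 3140114 and Sox2 probe 630487 the points of Prmt6 shRNA1 and GFP shRNA overlap.

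Nanog probe 2230152 read 740.1 and 1043.6 intensity units on the Prmt6 shRNA1 arrays, 1068.5 and 701.8 on the Prmt6 shRNA2 pair, and 2669.0 and 1988.1 with GFP shRNA. The highest Prmt6 shRNA array was thus well below the lower GFP shRNA array. After normalization the means were 9.92 ± 0.30 and 9.84 ± 0.03 log2 units with Prmt6 shRNA1 and Prmt6 shRNA2, and 11.10 ± 0.06 with GFP shRNA (SD, n = 2 each). The fitted log2 difference with both hairpins was -1.22 ± 0.18 (limma standard error, as for each fitted difference below), with a 95% interval from -1.68 to -0.76. It did not pass the threshold of 0.05 (limma adjusted p = 0.0794, unadjusted p = 0.000775). The 2 hairpins gave nearly the same value, -1.18 ± 0.21 with Prmt6 shRNA1 and -1.26 ± 0.21 with Prmt6 shRNA2 (adjusted p = 0.123 and 0.108).

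Nanog probe 4730632 behaved alike. It read 966.4 and 1480.0 on the Prmt6 shRNA1 arrays, 1541.1 and 1084.2 on the Prmt6 shRNA2 pair, and 3660.5 and 2749.3 with GFP shRNA. Again no Prmt6 shRNA array reached either GFP shRNA array. Its log2 difference was -1.19 ± 0.17 with both hairpins (95% interval -1.62 to -0.76, adjusted p = 0.0772). It was -1.21 ± 0.20 with Prmt6 shRNA1 and -1.17 ± 0.20 with Prmt6 shRNA2 (adjusted p = 0.1 and 0.11). Among all kept probes with a difference below 0, this probe had the 6th lowest p and probe 2230152 the 10th lowest. Prmt6 shRNA2 minus Prmt6 shRNA1 was 0.04 ± 0.20 on it (95% interval -0.45 to 0.54) and -0.08 ± 0.21 on probe 2230152 (-0.60 to 0.45). These intervals bound how far the hairpins can differ on these probes in this fit.

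The call on these 2 probes changed with the values and the set of probes tested. With the authors' deposited log2 values both passed (limma adjusted p = 0.0348 and 0.0324). Both passed as well among probes detected on all 6 arrays (0.00527 and 0.00507) and among the first series of probe addresses alone (0.0165 and 0.0135), where the fitted differences moved by less than 0.1. With Prmt6 shRNA2 replicate 2 left out, the differences were -1.22 and -1.21 (0.169 and 0.159). Without Prmt6 shRNA2 replicate 1 both passed (0.0324 and 0.0287), and without each other array neither did.

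Nanog probe 3140114, the brightest of the 3, showed another profile. It read 3086.9 and 8867.6 on the Prmt6 shRNA1 arrays, 3874.2 and 2288.8 on the Prmt6 shRNA2 pair, and 11653.0 and 5099.1 with GFP shRNA. Replicate 2 of Prmt6 shRNA1 therefore lay above replicate 2 of GFP shRNA, and these groups overlapped, while both Prmt6 shRNA2 arrays lay below both GFP shRNA arrays. Its replicates differed by 0.68 log2 units with Prmt6 shRNA1 and by 0.89 with GFP shRNA, against 0.43 and 0.09 on probe 2230152. The log2 difference was -0.34 ± 0.38 with Prmt6 shRNA1 and -1.24 ± 0.38 with Prmt6 shRNA2 (adjusted p = 0.916 and 0.265). The average, -0.79 ± 0.33, did not pass (adjusted p = 0.413). Leaving out replicate 1 of GFP shRNA moved the average to -0.34, and leaving out its replicate 2 moved it to -1.22. The value with Prmt6 shRNA1 was 0.12 without GFP shRNA replicate 1 and 0.0051 without Prmt6 shRNA1 replicate 1.

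**Figure D2:**
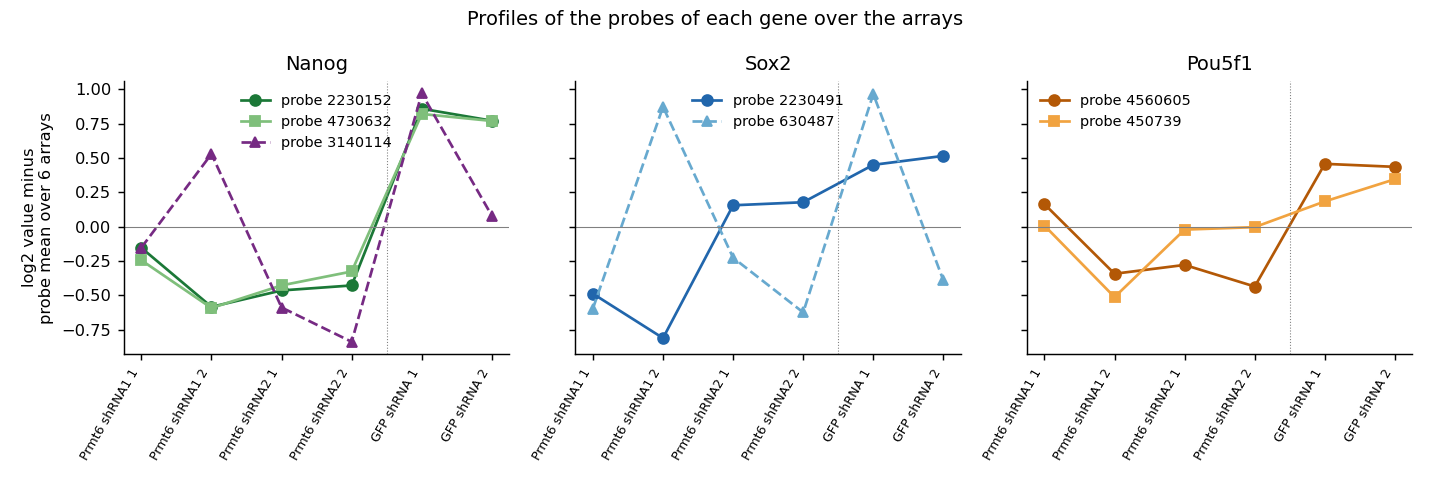
Profiles of the probes of Nanog, Sox2 and Pou5f1 over the 6 arrays, as the log2 value minus the probe's own mean; the dotted line divides the Prmt6 shRNA arrays on the left from the GFP shRNA arrays on the right. Nanog probes 2230152 and 4730632 lie nearly on one another, while Nanog probe 3140114 and Sox2 probe 630487, drawn dashed, are both high on Prmt6 shRNA1 replicate 2 and GFP shRNA replicate 1.

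The likeness of 2 probes was measured as the root-mean-square difference between their centred profiles over the 6 arrays. Nanog probes 2230152 and 4730632 differed by 0.06 log2 units, and each was the nearest of all kept probes to the other. Nanog probe 3140114 stood 0.56 and 0.58 from them, as the 2120th nearest probe to 2230152 and the 3000th nearest to 4730632. It lay nearer to the dim Sox2 probe 630487, at 0.34. Both were highest on GFP shRNA replicate 1 and Prmt6 shRNA1 replicate 2, the arrays with the most detected probes. The part of array quality in this was not tested, and no probe sequence was used here. Within an array, the log2 ratio of probe 3140114 to probe 4730632 ran from 1.02 to 2.65 on the Prmt6 shRNA arrays and was 0.84 and 1.68 on the GFP shRNA arrays, whereas that of probe 2230152 to probe 4730632 stayed between -0.59 and -0.40 on all 6.

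The probes of 1 gene form 5 pairs over the 3 genes, and no pair was called different in its change. The changes of Nanog probes 3140114 and 4730632 differed by 0.41 log2 units (two-sided exact permutation test, p = 0.667, adjusted p = 0.933 over the 5 pairs), and those of the Pou5f1 probes by 0.27 (exact p = 0.4, adjusted p = 0.933). With 4 arrays against 2 this exact permutation test cannot go below p = 0.133, so it could not have called a pair.

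Sox2 probe 2230491 was lower mainly with the first hairpin. It read 283.8 and 415.1 on the Prmt6 shRNA1 arrays, 803.0 and 510.8 on the Prmt6 shRNA2 pair, and 990.1 and 789.2 with GFP shRNA. In raw intensity one Prmt6 shRNA2 array exceeded one GFP shRNA array, and after normalization none did. The normalized means were 8.60 ± 0.23 with Prmt6 shRNA1, 9.41 ± 0.02 with Prmt6 shRNA2 and 9.73 ± 0.05 with GFP shRNA (SD, n = 2 each). In normalized values the groups thus stood in 3 steps without overlap. With 2 arrays per group such separation is common. Both Prmt6 shRNA1 arrays lay below both GFP shRNA arrays on 22% of all kept probes, and both Prmt6 shRNA2 arrays on 24.4%. The share of kept probes with all 3 steps was not counted.

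The Sox2 difference was -1.13 ± 0.19 with Prmt6 shRNA1, or 45.7% of the GFP shRNA level, and -0.32 ± 0.19 with Prmt6 shRNA2, or 80.4% (limma adjusted p = 0.107 and 0.442). The average was -0.72 ± 0.17 (adjusted p = 0.162, unadjusted p = 0.00587). It passed among probes detected on all 6 arrays (adjusted p = 0.0366) and in the first series alone (0.0411). The test of the difference itself, Prmt6 shRNA2 minus Prmt6 shRNA1, gave 0.82 ± 0.19 with a 95% interval from 0.34 to 1.29, an unadjusted p of 0.00652 and an adjusted p of 0.314. For the mean of both Sox2 probes, the dim one included, the difference between the hairpins was 0.13, with -0.64 for Prmt6 shRNA1 and -0.51 for Prmt6 shRNA2 against GFP shRNA. In the probe-level test of Prmt6 shRNA2 minus Prmt6 shRNA1, 3 of all kept probes were called (0.0328%), all lower with Prmt6 shRNA2. An unadjusted p under 0.05 was found on 926 (10.1%), and 4.83% of all kept probes had one with a lower level.

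Sox2 probe 630487 was near background. Its intensities were 0.4 and 133.8 on the Prmt6 shRNA1 arrays, 49.7 and -9.5 on the Prmt6 shRNA2 pair, and 154.5 and 22.1 with GFP shRNA. Only Prmt6 shRNA1 replicate 2 and GFP shRNA replicate 1 detected it, and the groups overlapped. The fitted differences, -0.15 ± 0.64 with Prmt6 shRNA1 and -0.71 ± 0.64 with Prmt6 shRNA2, did not pass (limma adjusted p = 0.989 and 0.586). With Prmt6 shRNA2 its signal was not well above background, and the bound on a fold came to under 1, so no bound is given.

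The Pou5f1 probes were detected on every array, and all their differences were smaller than those of Nanog probes 2230152 and 4730632. Probe 4560605 read 1525.5 and 2046.6 on the Prmt6 shRNA1 arrays, 1981.5 and 1189.1 on the Prmt6 shRNA2 pair, and 3325.5 and 2574.5 with GFP shRNA. Probe 450739 read 2355.2 and 3032.3 on the Prmt6 shRNA1 arrays, 3956.0 and 2772.9 on the Prmt6 shRNA2 pair, and 4609.3 and 4136.5 with GFP shRNA. On both, all 4 Prmt6 shRNA arrays lay below both GFP shRNA arrays, by little on probe 450739.

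With both hairpins the log2 difference of probe 4560605 was -0.67 ± 0.20 (95% interval -1.16 to -0.17, adjusted p = 0.262) and that of probe 450739 was -0.40 ± 0.20 (-0.90 to 0.11, adjusted p = 0.491). With Prmt6 shRNA1 the probes gave nearly equal values, -0.54 ± 0.23 and -0.52 ± 0.23, which became -0.28 and -0.26 with its replicate 2 left out. With Prmt6 shRNA2 they gave -0.80 ± 0.23 and -0.28 ± 0.23. None of these passed (adjusted p from 0.241 to 0.562). Neither probe passed under any of the alternatives tried.

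**Figure D3:**
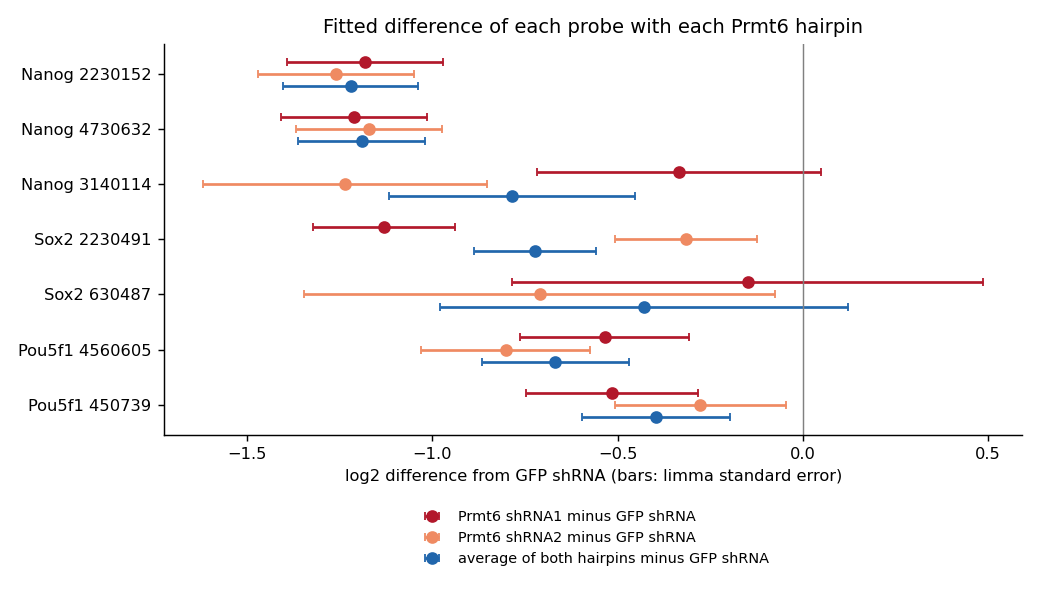
Fitted log2 difference from GFP shRNA of each probe with Prmt6 shRNA1 (dark red), Prmt6 shRNA2 (orange) and the average of both (blue), with bars for the limma standard error. Nanog probes 2230152 and 4730632 have like values with both hairpins, near -1.2, while Sox2 probe 2230491 is at -1.13 with Prmt6 shRNA1 and -0.32 with Prmt6 shRNA2.

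By hairpin, all 7 probes were below 0 with each. Both Prmt6 shRNA1 arrays lay below both GFP shRNA arrays on 5 probes, as on 22% of all kept probes, and both Prmt6 shRNA2 arrays on 6, as on 24.4%. With Prmt6 shRNA1 the test called 50 of 9138 probes (0.547%), 49 higher (0.536%) and 1 lower (0.0109%), none of them among the 7. An unadjusted p under 0.05 was found on 3 of the 7 and on 932 in all (10.2%), with a lower level on 3 of the 7 and on 3.9% of all. With Prmt6 shRNA2 limma called 0 (0%), while 1373 probes (15%) had an unadjusted p under 0.05. Of the 7, 4 had one, all with a lower level, as had 5.85% of all kept probes. The comparisons share the GFP shRNA arrays.

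**Figure D4:**
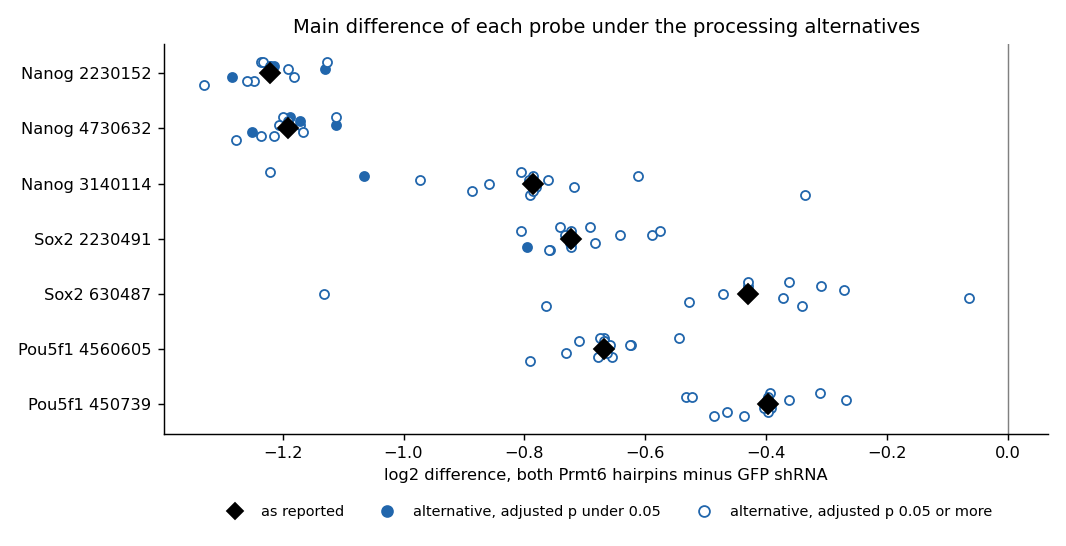
The log2 difference between both Prmt6 hairpins and GFP shRNA for each probe as reported (diamond) and under each processing alternative (circles, filled where the adjusted p was under 0.05; circles at one value overlap). Every circle lies below 0, filled ones occur on the Nanog probes and on Sox2 probe 2230491, and the single filled circle of Nanog probe 3140114 is the mean of the 3 Nanog probes, at -1.07.

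Nearest genes were ranked with uncharacterised loci and probes without a gene symbol passed over, so nearer probes may exist. The named genes whose probes had profiles most like those of the brightest probes differed by gene. For Pou5f1 probe 450739 they were Hnrnpk, Cdc20, Snrpd1, Zc3hc1 and Eef1b2, at 0.07 to 0.08 log2 units over the 6 arrays. For Sox2 probe 2230491 the nearest was Utf1, a chromatin-associated factor of pluripotent cells, at 0.13, followed by Aard, Hnrnpa2b1, Zc3h13 and Trim71 at 0.14 to 0.16. For Nanog probe 3140114 they were Gldc, Twistnb, Cab39l, Melk and Hsd17b11, at 0.10 to 0.15. The other 2 Nanog probes had Tcf15, a bHLH factor linked to the exit from naive pluripotency, as the nearest gene, at 0.13 and 0.10, which was looked up after the values were seen. These are descriptions over 6 arrays that share their scaling.

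Of 24 network partners, factors known to work with the 3 genes, 18 had a kept probe, and 0 passed in either direction. Their brightest probes had a median log2 difference of -0.17 with both hairpins, beside 0.02 over 6539 genes. Of the 18, 13 lay below 0. The share of the 6539 genes below 0 was not counted, while 52.5% of all kept probes lay below 0. Klf4, a Krüppel-like factor, was at -0.90 ± 0.15 and Zfp42 (Rex1), a zinc-finger marker of naive cells, at -0.65 ± 0.19 (limma adjusted p = 0.091 and 0.254). Zfp281, a zinc-finger partner of Nanog, was at -0.07 ± 1.29 with Prmt6 shRNA1. With Prmt6 shRNA2 it read 1083.2 and, on replicate 2, -11.9 intensity units, against 1439.8 and 861.6 with GFP shRNA, so no fold is given.

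Of 20 genes known as targets that the factors activate in embryonic stem cells, 11 had a kept probe and 0 passed. Their median was -0.54, beside 0.02 over 6539 genes, and 9 lay below 0. Of all kept probes, not only the brightest of each gene, 52.5% did. Eras, a Ras protein of embryonic stem cells, was at -1.29 ± 0.20 and Gdf3, a TGF-beta family ligand, at -0.73 ± 0.17 (adjusted p = 0.0794 and 0.166). Dppa2, a chromatin factor of early embryos, was at -0.74 ± 0.36, detected on 1 of 2 arrays with each Prmt6 hairpin. Spp1, which encodes osteopontin, was at -0.85 ± 1.59 with Prmt6 shRNA1. It read 3103.2 and, on replicate 2, 30.9 intensity units with Prmt6 shRNA2, against 5640.5 and 4391.2 with GFP shRNA, so no fold is given. Fgf4, Lefty1, Lefty2, Tdgf1, Dppa3, Jarid2, Tcl1 and Hesx1 were detected on no array.

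**Figure D5:**
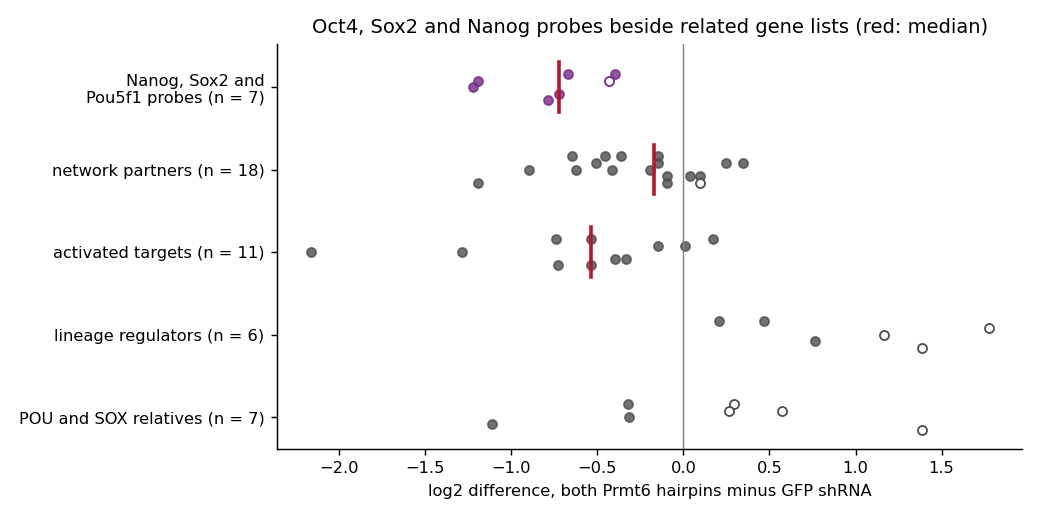
Log2 difference between both Prmt6 hairpins and GFP shRNA for the 7 probes and, below them, for the brightest kept probe of each gene in 4 related lists, with the number of points beside each name. Open points are probes not detected on both GFP shRNA arrays, and the median, in red, is drawn for sets with at most 1 such probe: -0.72 for the 7 probes, -0.17 for network partners and -0.54 for activated targets.

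Of 19 lineage regulators, developmental factors known to be bound by the 3 factors and kept low in stem cells, 6 had a kept probe and 0 passed. Of the 6, 3 were detected on both GFP shRNA arrays, 2 on 1 and 1 on none, so the filter kept some of them through the Prmt6 shRNA arrays, and no count or median of their directions is given. Gata3, a trophectoderm factor, read 118.3 and 297.1 intensity units on the Prmt6 shRNA1 arrays, 216.5 and 137.6 on the Prmt6 shRNA2 pair, and 18.0 and 10.8 with GFP shRNA. It was not well above background on either GFP shRNA array, so no fold is given (limma adjusted p = 0.0586). Sox17, Gata4 and Gata6, endoderm factors, were at 1.39 ± 0.23, 1.16 ± 0.17 and 0.76 ± 0.18 (adjusted p = 0.0894, 0.078 and 0.179). Sox17 and Gata4 were each detected on 1 GFP shRNA array.

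Relatives of Oct4 and Sox2 were mostly dim. Of 31 POU and SOX genes listed, 7 had a kept probe and 0 passed, and 3 of these were detected on both GFP shRNA arrays. Besides Sox17, Sox12 was at -1.11 ± 0.45, undetected on Prmt6 shRNA2 replicate 2. Pou3f1 was at -0.29 ± 0.38 for Prmt6 shRNA1 and 1.44 ± 0.38 for Prmt6 shRNA2. It was detected on 1 Prmt6 shRNA1 array, 1 GFP shRNA array and both Prmt6 shRNA2 arrays. Sox21 was at -0.70 ± 0.19 for Prmt6 shRNA1 and 0.06 ± 0.19 for Prmt6 shRNA2. The difference between the hairpins did not pass for either gene (limma adjusted p = 0.292 and 0.33). For 22 of the 29 on the array, no array gave a detected signal.

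Markers of other cell types stood beside these differences. Of 14 trophectoderm markers, 7 had a kept probe and 4 rose in the average of both hairpins, as 0.317% of all kept probes did. These were Krt7, Krt18 and Krt8, keratins of simple epithelia, at 3.26 ± 0.31, 3.18 ± 0.25 and 2.77 ± 0.17, and Cldn4, a tight junction claudin, at 2.02 ± 0.17 (limma adjusted p = 0.0305, 0.0247, 0.0247 and 0.0249). Krt7 was at 5.30 ± 0.36 with Prmt6 shRNA1 and 1.21 ± 0.36 with Prmt6 shRNA2. Prmt6 shRNA2 minus Prmt6 shRNA1 was -4.09 ± 0.36 on it and did not pass (limma adjusted p = 0.0645). The same 4 passed with Prmt6 shRNA1 alone and 0 of the 7 with Prmt6 shRNA2 alone. Without any 1 array other than Prmt6 shRNA2 replicate 1, limma called 0 of all kept probes in the average of both hairpins, where 595 to 981 had an unadjusted p under 0.05. Of the 7, 4 were detected on both GFP shRNA arrays, 2 on 1 (Krt7 and Krt18) and 1 on none, so some were kept through the Prmt6 shRNA arrays. The summed intensity of the 14 was highest with Prmt6 shRNA1, at 13882 and 22363. It was 6662 and 4585 on the Prmt6 shRNA2 pair, and 3085 and 2179 with GFP shRNA. Such sums, here and below, are raw and were not adjusted for the brightness of each array. The median kept probe read 260.2 and 472.05 on the Prmt6 shRNA1 arrays and 460.65 and 280.9 on the Prmt6 shRNA2 pair. With GFP shRNA it read 471.6 and 358.7. Eomes, Elf5, Hand1, Ascl2 and Plac1 were detected on no array.

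Of 17 endoderm markers, 10 had a kept probe and 0 passed. Of the 10, 6 were detected on both GFP shRNA arrays, 3 on 1 and 1 on none, so some were kept through the Prmt6 shRNA arrays. The summed intensity of the 17 was 16966 and 27758 on the Prmt6 shRNA1 arrays, 36343 and 27241 on the Prmt6 shRNA2 pair, and 15419 and 14131 with GFP shRNA, with Foxa2, Sox7, Lama1, Afp and Ttr detected on no array. Besides the endoderm factors above, Col4a1, a basement membrane collagen, was at 1.06 ± 0.16. Pdgfra, a receptor of primitive endoderm, read 89.2 and 331.4 on the Prmt6 shRNA1 arrays, 299.1 and 219.0 on the Prmt6 shRNA2 pair, and 122.5 and 77.8 with GFP shRNA, undetected on the last 2 arrays. Of 11 fibroblast markers, 1 was detected, the smooth muscle actin gene Acta2. It rose with Prmt6 shRNA1, by 3.29 ± 0.37 log2 units (limma adjusted p = 0.0396), was at 1.83 ± 0.37 for Prmt6 shRNA2 (adjusted p = 0.15), and was at 2.56 ± 0.32 in the average (adjusted p = 0.0586). The other 10, Col1a1 and Thy1 among them, were detected on no array. The part of other cell types in the Nanog, Sox2 and Pou5f1 differences was not tested.

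The embryonic stem cell markers other than the 3 genes had 12 kept probes, 10 below 0, a median of -0.35, and 0 that passed. Of all kept probes, not only the brightest of each gene, 52.5% lay below 0, and the median over 6539 genes was 0.02. The lists share members: Zfp42 and Esrrb were also counted among the network partners, and Utf1, Gdf3, Dppa4 and Fbxo15 among the activated targets. The counts of these lists are therefore not separate observations. Gdf3 and Zfp42 were described above. L1td1, which encodes an RNA-binding protein, and Tdh, threonine dehydrogenase, were at -0.65 ± 1.08 and -0.30 ± 0.98 with Prmt6 shRNA1. With Prmt6 shRNA2, L1td1 read 1126.2 and 55.2 intensity units and Tdh 711.3 and 47.1, the low value of each on replicate 2, where neither was detected. With GFP shRNA L1td1 read 2542.8 and 1570.3 and Tdh 1391.7 and 650.5. The summed intensity of this list was 19213 and 35389 on the Prmt6 shRNA1 arrays and 34616 and 24140 on the Prmt6 shRNA2 pair. With GFP shRNA it was 42265 and 33019. These raw sums overlapped between Prmt6 shRNA and GFP shRNA arrays. The arrays differed in median intensity as given above, so the overlap says nothing about normalized levels.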

How the data were processed

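The authors deposited, per the file headers, a bead intensity and a detection score for each probe and array. The intensities had their background subtracted by the authors, since values below 0 occur. The deposited detection score lies between 0 and 1 and grows with the signal, so a p-value was taken as its distance from 1. The authors' second table holds log2 values, for which the submitters' processing notes name lumi. Its version and normalization are not given in the sources used here.

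The limma function neqc (limma 3.58.1, R 4.3.3) corrected the background from these p-values, added an offset of 16 and quantile-normalized the log2 intensities. Probes with detection p under 0.01 on at least 2 of 6 arrays were kept and were not collapsed to genes. One group-means model was fitted over all kept probes with lmFit and eBayes (prior degrees of freedom 2.49, residual 3). P-values are two-sided, adjusted by Benjamini and Hochberg over 9138 probes and called under 0.05. The fit was tested on simulated data. Array names were matched to RefSeq symbols (34387 of 46643 probes). Probe addresses fall into 2 series, the first with 24613 probes.

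The genes, lists and tests were chosen with earlier results of these data known. Named genes are every probe of the 3 genes, up to 4 members of each list (called ones first, then the largest differences) and the 5 genes nearest in profile to each gene's brightest probe. One gene that this rule names is not reported here. Exact permutation tests compared probe pairs. The number of arrays limits the precision. Same-numbered replicates were not paired. Over the kept probes their deviations correlated at -0.66 between Prmt6 shRNA1 and GFP shRNA and at 0.11 between Prmt6 shRNA2 and GFP shRNA. Between the 2 Prmt6 hairpins the value was -0.34. Prmt6 shRNA1 replicate 2 and GFP shRNA replicate 1 thus tended to deviate together. The model held no term for this, and its cause was not tested.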

Additional observations from a re-analysis of the deposited data

How the results depend on the processing

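Under 18 alternatives, all 115 differences of the 7 probes between both Prmt6 hairpins and GFP shRNA were below 0, and 12 of them passed the threshold. Some alternatives left each fitted difference unchanged, so its sign could not differ. These were array weights, a block for the replicate number, no filter, detection on all 6 arrays and the brightest probe per gene. Of the 18, 6 differ only in leaving out 1 array. The first probe series was also fitted without Prmt6 shRNA2 replicate 2, a setting outside the ranges given for leaving out 1 array. The number of the 7 probes called was 0 as reported, 3 with detection on all 6 arrays or the first probe series alone, 2 with the authors' values, 1 with 75th percentile scaling, 1 gene of 3 with the mean of each gene's probes, and 0 to 2 without 1 array. With Prmt6 shRNA1 it was 1 with the authors' values and 3 with detection on all arrays or the first series, and with Prmt6 shRNA2 it was 2 with each of the last 2. The matching shares of all probes called with each hairpin alone are not given here. These counts by hairpin are therefore not read as particular to the 7 probes. Over all probes, 29 calls became 91 with 75th percentile scaling, 60 with array weights, 90 with the authors' values, 109 with the brightest probe and 129 with the mean per gene, 222 with detection on all arrays, 276 with the first series, 4 with no filter, 56 with an offset of 50, and 0 to 735 without 1 array, 735 being without Prmt6 shRNA2 replicate 1. With the replicate number as a replicate block limma called 0 (788 at an unadjusted p under 0.05). It changed no call on the 7 probes, with adjusted p = 0.278 for Nanog probes 2230152 and 4730632.

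Each reversal was uncalled, and the cause was not tested. Prmt6 shRNA2 minus Prmt6 shRNA1 on Nanog probe 4730632 was -0.0303 in the first series, -0.0108 there without Prmt6 shRNA2 replicate 2, and -0.135 to 0.215 without 1 array. On Nanog probe 2230152 it ran from -0.288 to 0.139 without 1 array. On Pou5f1 probe 450739 it was -0.0137 with the mean of its probes and -0.0222 to 0.497 without 1 array. With Prmt6 shRNA1, Nanog probe 3140114 ran from -0.776 to 0.118 and Sox2 probe 630487 from -0.844 to 0.598 without 1 array. The change of Sox2 probe 630487 minus that of 2230491 was -0.0323 without background correction and -0.44 to 0.579 without 1 array. That of Nanog 2230152 minus 4730632 was 0.000655 in the first series without Prmt6 shRNA2 replicate 2 and -0.0646 to 0.00176 without 1 array. That of 3140114 minus 4730632 ran from -0.0078 to 0.831 without 1 array. Sox2 probe 630487 failed the filter, and has no value, without GFP shRNA replicate 1 or Prmt6 shRNA1 replicate 2, and signal near background limits it.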
